A study of Mus musculus with 36 samples.

Results

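The neuregulin and ErbB signaling genes examined here were the receptors Erbb2, Erbb3, Erbb4 and Egfr, the neuregulins Nrg1, Nrg2, Nrg3 and Nrg4, and the ligands Btc and Hbegf. These 10 members were found by symbol among the 52636 genes of the count table, and each symbol matched 1 Ensembl identifier. RNA-seq was performed on cells sorted by FACS from skeletal muscles of S100β-GFP;NG2-dsRed mice, which carry GFP driven by the S100b promoter together with dsRed driven by the promoter of Cspg4, the gene for NG2. The cell types were S100β-GFP+;NG2-dsRed+ perisynaptic Schwann cells (PSCs, 9 libraries), single-labeled S100β-GFP+ Schwann cells (8 libraries) and single-labeled NG2-dsRed+ cells (10 libraries). The methods give ages of P15 to P21 and 1 mouse per library. The sample labels instead give P15 to a last day that rises with the library number from 21 to 46, and the difference is not explained. All mice carried both transgenes, and none was treated.

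ErbB receptors are receptor tyrosine kinases that act in pairs after a ligand of the EGF family binds. ErbB3 binds neuregulins but has little kinase activity of its own, whereas ErbB2 has an active kinase and no known ligand, so the pair forms a working neuregulin receptor. Neuregulin-1 on axons is known to control the survival, migration and myelination of Schwann cells. EGFR binds betacellulin, HB-EGF and amphiregulin rather than neuregulins, and ErbB4 binds neuregulins as well as betacellulin and HB-EGF.

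Libraries held 5221655 to 9592875 counts, and all levels below are TMM-normalized counts per 1000000 counts (CPM). Cspg4 had a median of 718 CPM in PSCs, 667 CPM in NG2-dsRed+ cells and 53.5 CPM in S100β-GFP+ cells. S100b had medians of 160 CPM in PSCs, 30.5 CPM in S100β-GFP+ cells and 5.43 CPM in NG2-dsRed+ cells. The label of the S100β-GFP+ libraries as Schwann cells was only partly borne out by markers. The summed level of 7 genes of myelinating Schwann cells was 1522 to 3606 CPM there and 2517 to 3389 CPM in PSCs. The summed level of 8 genes of the Schwann cell lineage, Sox10 and Foxd3 among them, was 72.3 to 447 CPM against 2367 to 3683 CPM. S100b, whose promoter drives the GFP used for sorting, is also in this list. The S100β-GFP+ libraries also held 9273 to 20018 CPM of 5 fibroblast markers and 235 to 1651 CPM of 6 macrophage and leukocyte markers, against 497 to 1918 CPM and 2.33 to 12.0 CPM in PSCs. In NG2-dsRed+ libraries 8 genes of pericytes and smooth muscle, the sort gene Cspg4 among them, summed to 7124 to 15607 CPM, and fibroblast markers to 1621 to 13152 CPM. None of these markers was at 0 across a whole cell type. In bulk libraries such as these, fewer cells of a type and less RNA per cell cannot be told apart. S100β-GFP+ libraries 14, 17 and 22 stood apart, with counts on 462, 777 and 1261 olfactory receptor genes against at most 214 in any other library. Differences of PSCs from S100β-GFP+ cells are given with and without these libraries for the members other than Nrg3 and for the leading pathway genes.

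Of the 10 members, 6 passed the filter on low counts, namely Erbb2, Erbb3, Egfr, Nrg4, Btc and Hbegf. In PSCs against S100β-GFP+ cells, 3 of these were higher and 1 was lower at an adjusted p under 0.05 (edgeR's quasi-likelihood test with Benjamini-Hochberg adjustment over all genes), in a comparison in which 47.0% of all 15330 tested genes passed, 22.9% higher and 24.1% lower. Against NG2-dsRed+ cells 4 members were higher and 1 was lower, where 44.0% of all tested genes passed, 20.9% higher and 23.1% lower. Between S100β-GFP+ and NG2-dsRed+ cells 2 members passed, both higher in S100β-GFP+ cells, beside 33.3% of all tested genes, 18.1% higher and 15.2% lower. The comparisons share libraries, so their values are given side by side and are not independent.

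**Figure D1:**
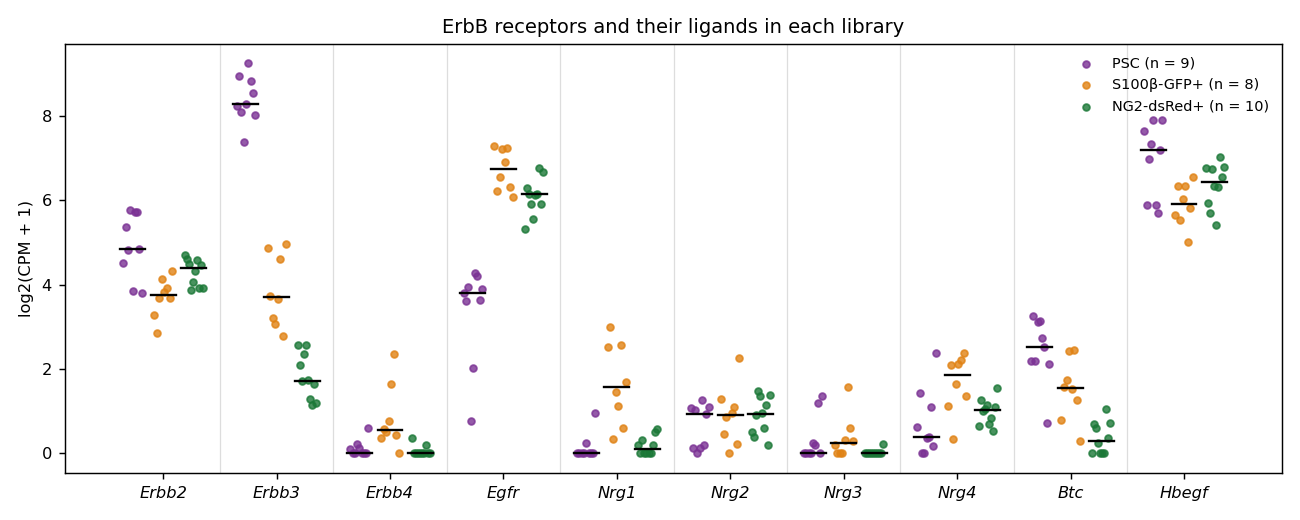
Level of each of the 10 genes as log2(CPM + 1) on the vertical axis, with 1 point per library, colors for the 3 cell types and black lines at the medians. Erbb3 is above every other cell type's libraries in all 9 PSC libraries and Egfr is below them, while Erbb4, Nrg1, Nrg2 and Nrg3 have PSC medians of at most 0.908 CPM.

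Erbb3 (ENSMUSG00000018166, chr10:128567523-128589652, minus strand, GRCm38) showed the largest difference of the 6 tested members in both comparisons with PSCs. Its level was 165 CPM in the lowest PSC library, 310 CPM at the median and 604 CPM in the highest. S100β-GFP+ libraries ran from 5.92 through a median of 12.0 to 30.4 CPM, and NG2-dsRed+ libraries from 1.22 through 2.30 to 4.96 CPM. The 3 cell types did not overlap: the lowest PSC library stood above the highest S100β-GFP+ library, and the lowest S100β-GFP+ library above the highest NG2-dsRed+ library. Every library of one group lay above every library of the other for 5.24% of tested genes in PSCs against S100β-GFP+ cells, 5.08% in PSCs against NG2-dsRed+ cells and 7.21% in S100β-GFP+ against NG2-dsRed+ cells, where 4.38% were separated in the opposite direction. The log2 fold change in PSCs was 4.49 ± 0.38 (SE) against S100β-GFP+ cells (edgeR adjusted p = 4.53e-11) and 7.00 ± 0.39 against NG2-dsRed+ cells (edgeR adjusted p = 9.95e-15). S100β-GFP+ cells exceeded NG2-dsRed+ cells by 2.51 ± 0.34 on the log2 scale (edgeR adjusted p = 8.54e-07), or by 2.59 ± 0.36 without S100β-GFP+ libraries 14, 17 and 22 (adjusted p = 1.92e-06). Without the same libraries the PSC to S100β-GFP+ difference was 4.45 ± 0.45 (edgeR adjusted p = 5.24e-09).

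The levels of 3 genes most like that of Erbb3 over the 27 libraries, by Pearson's r of log2 CPM, were those of Foxd3 (0.985), Sox10 (0.983) and Kcna2 (0.982). Foxd3 and Sox10 encode transcription factors of the neural crest and its glia, and Kcna2 encodes a voltage-gated potassium channel. Their median levels (PSC, S100β-GFP+ and NG2-dsRed+ libraries in turn) were 229, 4.64 and 1.00 CPM for Foxd3, 467, 16.9 and 3.91 CPM for Sox10, and 622, 43.3 and 10.4 CPM for Kcna2. These correlations describe libraries that fall into 3 cell types. Lower Erbb3 in S100β-GFP+ libraries thus came together with lower Schwann lineage markers there, and the part of cell composition in the Erbb3 difference was not tested. The myelinating markers, which were at similar summed levels in both, did not follow it.

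Erbb2 (ENSMUSG00000062312, chr11:98412470-98437716, plus strand), the partner of ErbB3 with the active kinase, differed less. PSC libraries ran from 12.8 through a median of 27.9 to 53.4 CPM, S100β-GFP+ libraries from 6.25 through 12.5 to 18.9 CPM, and NG2-dsRed+ libraries from 13.5 through 20.1 to 25.1 CPM. The groups overlapped: 7 of 9 PSC libraries were above every S100β-GFP+ library, 6 were above every NG2-dsRed+ library, and 2 were below every NG2-dsRed+ library. PSCs exceeded S100β-GFP+ cells by 1.40 ± 0.27 on the log2 scale (edgeR adjusted p = 8.65e-05), or 1.58 ± 0.32 without S100β-GFP+ libraries 14, 17 and 22 (adjusted p = 2.21e-04). Against NG2-dsRed+ cells it was 0.80 ± 0.25 (edgeR adjusted p = 0.00907), and with limma-voom and sample quality weights it was 0.41 and no longer passed (adjusted p = 0.0801). NG2-dsRed+ and S100β-GFP+ cells, next to each other in the order of levels, did not differ past the threshold in the fit over all 3 cell types (−0.60 ± 0.26 in S100β-GFP+ cells, adjusted p = 0.0803), nor without libraries 14, 17 and 22 (−0.77 ± 0.31, adjusted p = 0.0552). Exons of Erbb2 overlap those of Mien1 on the opposite strand, which had 1123, 1016 and 879 counts in all PSC, S100β-GFP+ and NG2-dsRed+ libraries together. No source states that strand was used in counting, and without it reads in the overlap cannot be told apart. The genes most like Erbb2 in level over the 27 libraries were Mtss1l (r = 0.880), Rgmb (r = 0.872) and Gpc1 (r = 0.862).

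Egfr (ENSMUSG00000020122, chr11:16752203-16918158, plus strand), which binds EGF and related ligands but not neuregulins, went the other way. It ranged from 0.701 through a median of 12.9 to 18.5 CPM in PSCs, from 66.1 through 106 to 156 CPM in the S100β-GFP+ group, and from 38.9 through 69.4 to 108 CPM in the NG2-dsRed+ group. All 9 PSC libraries were below every library of the other cell types, a separation found downward for 10.3% of tested genes against S100β-GFP+ cells and for 8.83% against NG2-dsRed+ cells. In PSCs its level fell by 3.26 ± 0.35 on the log2 scale against S100β-GFP+ cells (edgeR adjusted p = 7.97e-09), or by 2.96 ± 0.39 without libraries 14, 17 and 22 (adjusted p = 4.62e-07). Against NG2-dsRed+ cells it fell by 2.60 ± 0.34 (edgeR adjusted p = 2.48e-07). S100β-GFP+ and NG2-dsRed+ cells overlapped and did not differ past the threshold (0.66 ± 0.32, adjusted p = 0.118, and 0.39 ± 0.38 without libraries 14, 17 and 22, adjusted p = 0.466). Egfros, an antisense gene inside the span of Egfr whose exons do not overlap its own, had 99, 270 and 281 counts in the 3 cell types.

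The genes most like Egfr were Colec12 (r = 0.967), Sned1 (r = 0.965) and Creb3l1 (r = 0.958), which encode a collectin of the cell surface, a protein of the extracellular matrix and a transcription factor of secretory cells. Fibroblast markers moved in the same direction as Egfr: 4 of 5 were lower in PSCs when set against S100β-GFP+ cells, and 5 of 5 when set against NG2-dsRed+ cells. Of all tested genes, 24.1% were lower in PSCs in the first comparison and 23.1% in the second. Of the 6 macrophage and leukocyte markers, PSCs had lower levels of 6 in the comparison with S100β-GFP+ cells and of 2 in that with NG2-dsRed+ cells. Markers of pericytes and smooth muscle were lower in PSCs for 5 of 8 in the first comparison, with 1 higher, and for 7 of 8 in the second. These markers include Cspg4, whose promoter drives the dsRed used for sorting. Endothelial markers passed for 0 of 5 and 5 of 5 by edgeR, all lower. Their summed levels were 76.0 to 509 CPM in PSC, 25.1 to 2004 CPM in S100β-GFP+ and 1156 to 2717 CPM in NG2-dsRed+ libraries. The highest S100β-GFP+ sums were those of libraries 14, 17 and 22, at 543, 2004 and 1084 CPM. The rest of that group ran from 25.1 to 100 CPM. PSC library 18 was at 76.0 CPM, and the remaining PSC libraries ran from 168 to 509 CPM. With limma-voom 1 of 5 passed in the first comparison, with the PSC level above. The part of any of these cells in the Egfr difference was not tested.

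Erbb2 and Egfr lie on the same chromosome and differed in opposite directions, and the 250 bases before their starts in RefSeq (GRCm38.p6) are shown for that reason. Capitals mark a GC box, searched as GGGCGG or CCGCCC, which 32.7% of the 32851 windows of this length in the RefSeq table hold on either strand. Neither window holds TATAAA or its reverse complement TTTATA (12.4% of all windows do) or the SOX core ACAAAG or its reverse complement CTTTGT (16.5% do). GC content was 66.0% for Erbb2 and 60.8% for Egfr, and the last 14 bases for Erbb2 lie in its first exon in GENCODE M21. The windows are chr11:98412234-98412483 for Erbb2 and chr11:16751953-16752202 for Egfr, both on the plus strand.
Erbb2: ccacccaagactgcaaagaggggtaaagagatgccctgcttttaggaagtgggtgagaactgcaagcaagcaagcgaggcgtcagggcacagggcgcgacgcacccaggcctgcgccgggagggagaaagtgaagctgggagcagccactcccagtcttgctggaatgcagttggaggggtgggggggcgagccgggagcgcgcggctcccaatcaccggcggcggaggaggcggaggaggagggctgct
Egfr: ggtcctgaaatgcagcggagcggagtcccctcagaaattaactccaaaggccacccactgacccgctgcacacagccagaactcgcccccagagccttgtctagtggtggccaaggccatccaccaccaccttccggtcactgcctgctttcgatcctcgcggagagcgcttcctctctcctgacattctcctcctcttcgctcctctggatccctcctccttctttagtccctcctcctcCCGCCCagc

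Erbb4 (ENSMUSG00000062209, chr1:68032186-69108059, minus strand), the other receptor for neuregulins, did not pass the filter. PSC libraries had 8 counts in all, S100β-GFP+ libraries 49 and NG2-dsRed+ libraries 3. The level was at 0 in 5 of 9 PSC libraries and at most 0.526 CPM in the others, where 3 counts over all PSC libraries would be 0.0380 CPM. Of the 49 counts in S100β-GFP+ cells, 25 came from library 22. When all genes were fitted with no filter, Erbb4 was lower in PSCs than in S100β-GFP+ cells by 3.14 ± 0.96 on the log2 scale (edgeR adjusted p = 0.0119). In that fit 28.3% of all 44705 genes were called lower in PSCs and the median over all genes was −0.97. Without libraries 14, 17 and 22 the median was 0, 12.6% of genes were called lower, and the Erbb4 call was lost (−1.47 ± 1.09, adjusted p = 0.358).

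**Figure D2:**
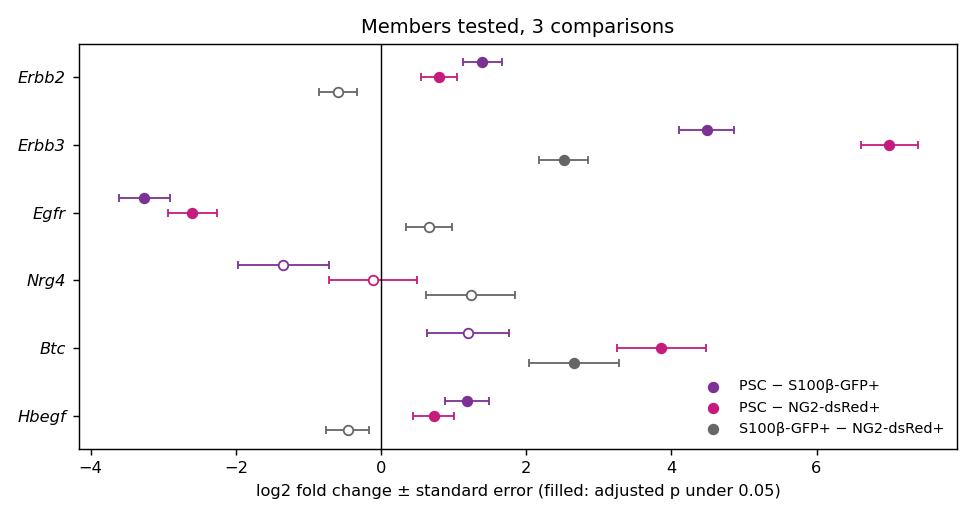
Log2 fold changes of the 6 tested members (horizontal axis) with standard errors in the 3 comparisons, filled where the edgeR adjusted p was under 0.05. Erbb3 lies furthest to the right, at 7.00 in PSCs against NG2-dsRed+ cells, and Egfr at −3.26 and −2.60 is on the left in both comparisons with PSCs.

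Dividing each level by the length of the gene's exons (CPM per kb) allowed the receptors to be compared with one another approximately. That length merged the exons of all annotated transcripts, from 5210 bases for Erbb2 to 12355 for Erbb4. Which transcripts were expressed was not tested. Erbb3 made up 72.6 to 94.7% of the summed CPM per kb of the 4 receptor genes in PSCs, with a median of 90.3%. In S100β-GFP+ cells its share was 7.04 to 34.8% (median 16.1%) and in NG2-dsRed+ cells 1.62 to 10.4% (median 3.73%). Without libraries 14, 17 and 22 the S100β-GFP+ median was 21.0%. Egfr held the largest median share in both of those, 68.1% and 57.8%, and 1.49% in PSCs. Erbb2 held a median of 8.51% for PSC (4.76 to 27.2%), 17.4% for S100β-GFP+ (8.31 to 24.9%) and 37.9% for NG2-dsRed+ libraries (21.8 to 53.0%). The median ratio of Erbb3 to Erbb2 in CPM per kb was 10.6 for PSC, 1.08 for S100β-GFP+ and 0.0988 for NG2-dsRed+ libraries. Its ranges were 2.67 to 19.9, 0.391 to 2.80 and 0.0535 to 0.272, so that PSC and S100β-GFP+ libraries overlapped. The sum over the receptors had a median of 55.3 CPM per kb for PSC, 14.8 for S100β-GFP+ and 10.4 for NG2-dsRed+ libraries. Erbb3 led in PSC libraries, and Egfr led at the median of both other cell types. These shares carry no test.

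**Figure D3:**
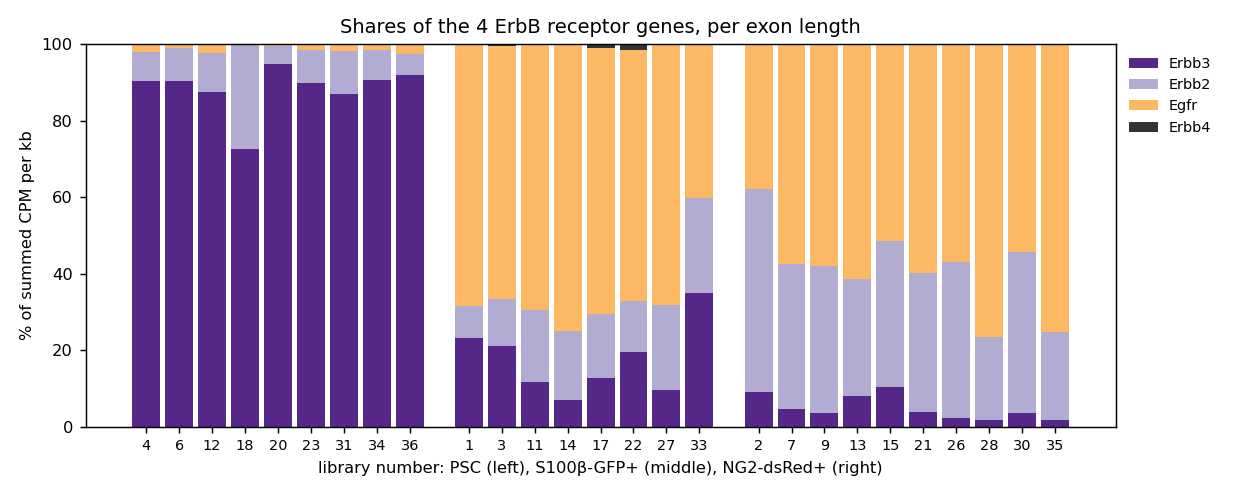
Share of the summed CPM per kb of exon taken by each of the 4 ErbB receptor genes, 1 bar per library, with library numbers on the horizontal axis and percent on the vertical axis. The Erbb3 share is at least 72.6% in each PSC library and at most 34.8% in each of the other libraries.

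The neuregulins were at low levels in all 3 cell types, and only Nrg4 passed the filter. Nrg1 (ENSMUSG00000062991, chr8:31814551-32884029, minus strand) encodes the neuregulin that axons present to Schwann cells, and its counts here sum all of its isoforms. It had 11 counts in PSCs, of which 9 came from library 36, and 10 counts in NG2-dsRed+ cells. The 149 counts in S100β-GFP+ cells came from all 8 libraries, from 0.277 through a median of 1.99 to 7.00 CPM. They were uneven, with 33, 56 and 30 counts in libraries 1, 3 and 22, and 2 and 3 in libraries 11 and 27. PSC libraries were at 0 in 7 of 9 and reached 0.947 CPM. With no filter Nrg1 fell by 4.20 ± 0.87 on the log2 scale in PSCs against S100β-GFP+ cells (edgeR adjusted p = 2.52e-04), and without libraries 14, 17 and 22 the same fit gave −4.24 ± 0.99 (adjusted p = 0.00138), beside the medians over all genes given for Erbb4. Between PSCs and NG2-dsRed+ cells the unfiltered difference was −0.13 ± 0.90 (adjusted p = 1), at a depth of about 10 counts per cell type. The lincRNA Gm26578, which overlaps exons of Nrg1 on the opposite strand, had 13 counts in S100β-GFP+ cells and 0 in the others.

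Nrg2 (ENSMUSG00000060275), the other neuregulin that binds ErbB3, had 54 counts over the PSC libraries, 48 over the S100β-GFP+ libraries and 60 over the NG2-dsRed+ libraries, with medians of 0.908, 0.888 and 0.907 CPM. The groups overlapped, and no difference was detectable at this depth in the unfiltered fit (−0.63 ± 0.71 and −0.47 ± 0.67 for PSCs against S100β-GFP+ and NG2-dsRed+ cells, adjusted p = 0.491 and 0.766). Without libraries 14, 17 and 22 the former was −0.82 ± 0.78 (adjusted p = 0.492). Nrg3 (ENSMUSG00000041014), a ligand of ErbB4, had 27 counts in PSCs, 24 of them in libraries 31 and 36, 18 in S100β-GFP+ cells, 12 of them in library 22, and 1 in NG2-dsRed+ cells. In the unfiltered fit Nrg3 was higher in PSCs than in NG2-dsRed+ cells by 3.50 ± 1.12 on the log2 scale (edgeR adjusted p = 0.0232), although 5 of 9 PSC libraries were at 0 and DESeq2 did not call it (3.46, adjusted p = 0.0677). In that fit 8.39% of all genes were called higher.

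Nrg4 (ENSMUSG00000032311, chr9:55220222-55326844, minus strand), also a ligand of ErbB4, ranged from 0 through a median of 0.313 to 4.21 CPM in PSCs, from 0.277 through 2.68 to 4.18 CPM in the S100β-GFP+ group, and from 0.456 through 1.04 to 1.94 CPM in the NG2-dsRed+ group. Library 36 gave 40 of its 78 counts in PSCs. No comparison passed the threshold, at −1.35 ± 0.63 for PSCs against S100β-GFP+ cells (edgeR adjusted p = 0.0787), −0.11 ± 0.61 for PSCs against NG2-dsRed+ cells (adjusted p = 0.905) and 1.24 ± 0.61 for S100β-GFP+ against NG2-dsRed+ cells (adjusted p = 0.126). Limma-voom gave −2.12 for the first of these (adjusted p = 0.00805), and without libraries 14, 17 and 22 edgeR gave −1.07 ± 0.75 (adjusted p = 0.262). Exons of Nrg4 overlap Fbxo22 on the opposite strand, with 1192, 898 and 1659 counts, so that the few Nrg4 counts may include reads of that gene.

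Btc (ENSMUSG00000082361, chr5:91357261-91402994, minus strand) encodes betacellulin, a ligand of EGFR and ErbB4. PSC libraries ran from 0.648 through a median of 4.72 to 8.57 CPM, S100β-GFP+ libraries from 0.222 through 1.95 to 4.44 CPM, and NG2-dsRed+ libraries from 0 through 0.230 to 1.06 CPM. All PSC libraries but library 34 were above every NG2-dsRed+ library. Btc was higher in PSCs than in NG2-dsRed+ cells by 3.86 ± 0.61 on the log2 scale (edgeR adjusted p = 6.18e-06), and in S100β-GFP+ than in NG2-dsRed+ cells by 2.66 ± 0.62 (adjusted p = 0.00113), or by 1.96 ± 0.69 without libraries 14, 17 and 22 (adjusted p = 0.0281). The difference between PSCs and S100β-GFP+ cells did not pass (1.20 ± 0.57, adjusted p = 0.0829), but it passed without libraries 14, 17 and 22 (1.91 ± 0.70, adjusted p = 0.0297) and without PSC library 34 (1.36, adjusted p = 0.0426). PSCs held 395 Btc counts in all, S100β-GFP+ cells 107 and NG2-dsRed+ cells 22.

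Hbegf (ENSMUSG00000024486) encodes HB-EGF, which also binds EGFR and ErbB4 and is shed from the cell surface by metalloproteases. It was the most abundant ligand per exon length among the 6 members that are ligands, with a median of 30.0 CPM per kb in PSCs against 1.04 for Btc. PSC libraries ran from 50.5 through a median of 145 to 238 CPM, S100β-GFP+ libraries from 31.4 through 59.7 to 92.8 CPM, and NG2-dsRed+ libraries from 41.5 through 85.7 to 130 CPM. The groups overlapped, with 6 of 9 PSC libraries above every S100β-GFP+ library and 5 of 9 above every NG2-dsRed+ library. Hbegf exceeded its level in S100β-GFP+ cells by 1.19 ± 0.30 on the log2 scale (edgeR adjusted p = 0.00183), or by 1.20 ± 0.36 without libraries 14, 17 and 22 (adjusted p = 0.00916), and its level in NG2-dsRed+ cells by 0.72 ± 0.28 (adjusted p = 0.0356). The last call was lost when PSC library 20 or 36, or NG2-dsRed+ library 7, 9, 15, 21 or 26, was left out, with differences of 0.64 to 0.71 and adjusted p from 0.0518 to 0.0653. NG2-dsRed+ and S100β-GFP+ cells did not differ past the threshold (−0.46 ± 0.29 in S100β-GFP+ cells, adjusted p = 0.244, and −0.44 ± 0.35 without libraries 14, 17 and 22, adjusted p = 0.360). The genes most like Hbegf were Smarce1 (r = 0.878), Nolc1 (r = 0.854) and Fam3c (r = 0.839).

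Within PSCs the levels of Erbb2, Erbb3 and Hbegf differed between libraries with a low and a high part of their counts on Lars2, Gm23935 and Gm15564. These 3 genes held 3.64 to 36.6% of counts in PSC libraries, 19.5 to 39.1% in S100β-GFP+ libraries and 12.5 to 40.0% in NG2-dsRed+ libraries. In PSC library 36, where that share was 3.64%, the levels were 12.8 CPM for Erbb2, 257 CPM for Erbb3 and 237 CPM for Hbegf. In PSC library 23, where it was 36.6%, they were 51.3 CPM, 604 CPM and 58.4 CPM. Hbegf was at 125 to 238 CPM in the 4 PSC libraries with shares under 10%, and at 50.5 to 58.6 CPM in the 3 with shares over 30%. Erbb2 was at 12.8 to 27.3 CPM in the first set and 40.1 to 51.3 CPM in the second, and Erbb3 at 257 to 310 CPM and 453 to 604 CPM. The other 2 PSC libraries lay between in share, and library 18 did not follow this order: at a share of 27.7% it had the lowest Erbb3 of all PSCs (165 CPM), Hbegf at 161 CPM and Erbb2 at 53.4 CPM. Library 18 also had the lowest Egfr of all PSCs (0.701 CPM). It held counts on 14616 genes, against at least 19669 in every other library. Its 4 muscle fibre markers summed to 1158 CPM, against at most 562 CPM in the other PSC libraries. Library 34, at 17.8%, had 368 CPM of Erbb3, 145 CPM of Hbegf and 27.9 CPM of Erbb2. Egfr and Btc overlapped between the sets, at 3.06 to 14.3 CPM against 11.3 to 18.5 CPM for Egfr and 3.37 to 7.75 CPM against 4.72 to 8.57 CPM for Btc. The summed level of 4 melanocyte markers moved with the share too, at 97.9 to 121 CPM in the first set and 8.30 to 13.9 CPM in the second, with PSC medians of 79.4 CPM against 3.20 CPM in S100β-GFP+ and 1.62 CPM in NG2-dsRed+ libraries. Dct made up 5355 of these counts in PSCs and Pmel 160, while Mlana and Tyr had 1 count each, and the part of such cells in the levels was not tested. With the share as a term in the fit, Hbegf no longer passed against S100β-GFP+ cells (0.54 ± 0.27, edgeR adjusted p = 0.101) or NG2-dsRed+ cells (0.21 ± 0.24, adjusted p = 0.524). Erbb2 and Erbb3 kept their calls, with differences of 1.72 ± 0.22 and 4.93 ± 0.34 against S100β-GFP+ cells (edgeR adjusted p = 1.54e-07 and 1.51e-12) and 1.03 ± 0.20 and 7.35 ± 0.35 against NG2-dsRed+ cells (adjusted p = 8.01e-05 and 3.70e-16).

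**Figure D4:**
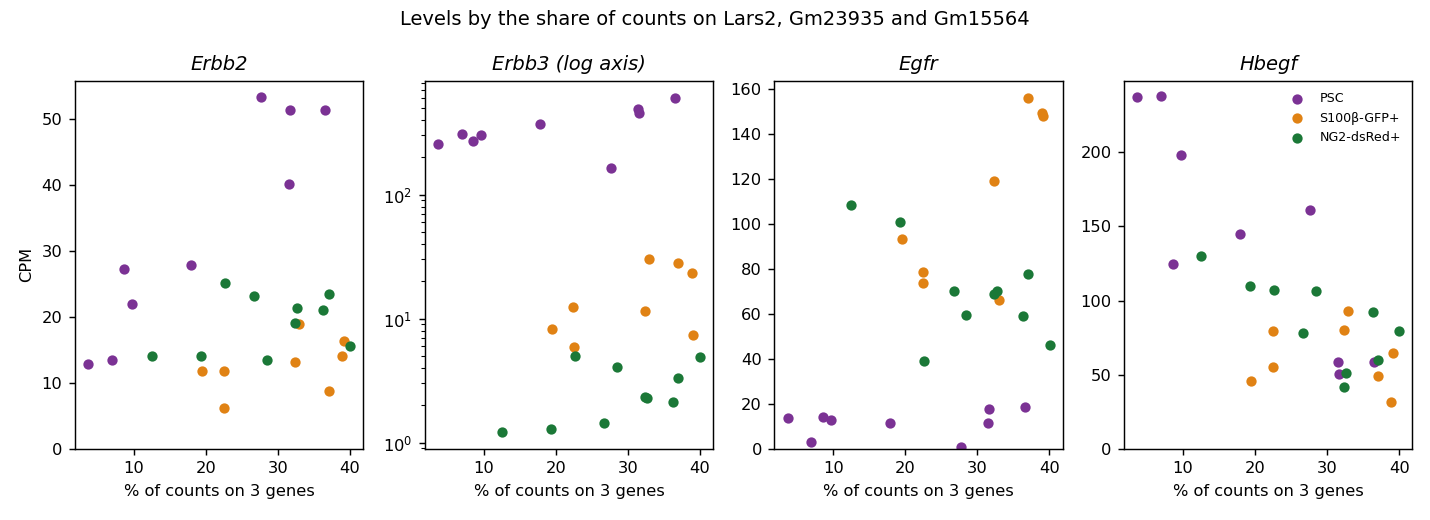
Levels of Erbb2, Erbb3, Egfr and Hbegf in CPM (vertical axes, logarithmic for Erbb3) against the percent of each library's counts that fell on Lars2, Gm23935 and Gm15564 (horizontal axes), 1 point per library. Among PSC libraries Hbegf goes from 237 CPM at a share of 3.64% to 58.4 CPM at 36.6%, and Erbb2 from 12.8 to 51.3 CPM, while PSC library 18, at 27.7%, has Hbegf at 161 CPM and the lowest PSC level of Erbb3.

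Of 49 other genes of the pathway, 45 passed the filter. In PSCs 15 were higher and 12 lower than in S100β-GFP+ cells, and 9 were higher and 17 lower than in NG2-dsRed+ cells. Over all tested genes 22.9% were higher and 24.1% lower in the first comparison, and 20.9% and 23.1% in the second, and the counts of each group of genes below stand beside these shares. The median log2 fold change over the 45 was 0.08 and −0.18 in these comparisons, beside 0.04 and 0.02 over all tested genes. Without S100β-GFP+ libraries 14, 17 and 22 the median over all tested genes against S100β-GFP+ cells was 0.16. Of the 27 pathway genes called against S100β-GFP+ cells 26 were called in the same direction without these libraries, all but Plcg1, and Lnx1, Pik3r3 and Spry1 were added as higher. The differences of the leading genes were then −1.79 for Adam9, 3.68 for Adam12, 1.43 for Adam17, −2.81 for Errfi1, −2.42 for Cblb, −0.67 for Cbl, −1.09 for Shc1, −1.47 for Pik3cb, 5.37 for Etv1, 3.40 for Etv5, 2.61 for Ccnd1 and 2.81 for Dusp6. The genes named below beyond the 3 leading ones of each group were chosen after their values were seen.

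Among other ligands of the EGF family, Areg, Ereg and Egf differed between cell types and were at low levels in PSCs. Areg, the gene for the EGFR ligand amphiregulin, had 2 counts over all PSC libraries, and ran from 3.78 through a median of 16.2 to 63.0 CPM in S100β-GFP+ libraries. It had 8 counts in NG2-dsRed+ cells. No PSC library overlapped an S100β-GFP+ library, and with 2 counts on one side the ratio is poorly set, so no fold is given (edgeR adjusted p = 6.31e-11). Ereg, for epiregulin, had 0 counts in PSCs, which allows up to 0.0380 CPM, and 173 counts in S100β-GFP+ cells. Egf was higher in PSCs than in NG2-dsRed+ cells by 2.65 ± 0.72 on the log2 scale (edgeR adjusted p = 0.00334) and had a median of 1.77 CPM in PSC, 1.40 CPM in S100β-GFP+ and 0.218 CPM in NG2-dsRed+ libraries. All 6 macrophage and leukocyte markers were higher in S100β-GFP+ libraries too, and their part in Areg and Ereg was not tested.

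Among 8 genes of ligand processing, PSCs had 4 higher and 2 lower against S100β-GFP+ cells, and 3 higher and 2 lower against NG2-dsRed+ cells. Adam12, a metalloprotease that can shed HB-EGF, was at 55.5 to 260 CPM in PSCs, 6.53 to 21.8 CPM in S100β-GFP+ cells and 3.71 to 13.1 CPM in NG2-dsRed+ cells, with no overlap of PSCs with either. Its log2 fold changes were 3.64 ± 0.29 and 4.45 ± 0.28 (edgeR adjusted p = 1.90e-11 and 1.21e-13). Adam17, the sheddase of several EGF family ligands and a protease of neuregulin-1, was at 117 to 304 CPM in PSCs against 68.1 to 102 CPM and 32.6 to 61.2 CPM, and was higher by 1.33 ± 0.18 and 1.93 ± 0.16. Adam9 was lower in PSCs by 1.81 ± 0.24 and 1.51 ± 0.23 on the log2 scale, at a median of 15.8 CPM against 63.0 and 55.5 CPM. Rhbdf1 was higher and Adam10 lower in both comparisons, with absolute differences of 0.94 or less, and the call of Rhbdf1 against NG2-dsRed+ cells was lost with no filter (0.40, adjusted p = 0.113) and in 6 of 19 fits that left out 1 library. Bace1 was higher against S100β-GFP+ cells (0.41 ± 0.17, edgeR adjusted p = 0.0481), a call lost with DESeq2 (adjusted p = 0.0724), in 4 other alternatives and in 9 of 17 fits that left out 1 library. Metalloproteases of this group thus differed in both directions.

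Of 9 receptor inhibitors and turnover genes, 0 were higher in PSCs in either comparison by edgeR, by DESeq2 or by limma-voom, and 0 at an unadjusted p under 0.05 in any of these. With the 3-gene share as a term, Lrig2 was higher against S100β-GFP+ cells (0.73, adjusted p = 0.00674). By edgeR 3 were lower in the comparison with S100β-GFP+ cells, 5 in that with NG2-dsRed+ cells. Errfi1, whose product inhibits the kinases of EGFR and ErbB2, was at 22.6 to 102 CPM in PSCs, 201 to 650 CPM in S100β-GFP+ cells and 329 to 1004 CPM in NG2-dsRed+ cells. All PSC libraries were below all others, and the level fell by 2.99 ± 0.29 and 3.51 ± 0.29 on the log2 scale (edgeR adjusted p = 7.32e-10 and 3.79e-11). Cblb, a ubiquitin ligase, was lower by 2.55 ± 0.37 and 1.67 ± 0.35, at a median of 4.95 CPM against 32.7 and 17.4 CPM. Cbl, the related ligase that marks EGFR for degradation, differed by −0.54 ± 0.16 and −0.36 ± 0.15, and the latter (edgeR adjusted p = 0.0484) was lost in 7 of the alternatives and in 14 of 19 fits that left out 1 library. Lrig1, an ErbB inhibitor, and Lnx1, a ubiquitin ligase, were lower against NG2-dsRed+ cells (−1.76 ± 0.37 and −2.33 ± 0.63), and did not pass against S100β-GFP+ cells (−0.84 ± 0.39 and −0.66 ± 0.65), where Lnx1 turned to 1.75 without libraries 14, 17 and 22 (adjusted p = 0.0289).

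Of the adaptors and kinases 12 were tested. Against S100β-GFP+ cells 2 (Gab1 and Pik3ca) were higher and 4 lower. Against NG2-dsRed+ cells 6 were lower and 0 were higher by edgeR, as by DESeq2 and limma-voom, and 0 were higher at an unadjusted p under 0.05. With the 3-gene share as a term, Gab1 was higher there (0.57, adjusted p = 0.00118). Shc1, the adaptor that links ErbB receptors to RAS, was at 13.3 to 23.5 CPM in PSCs, 36.4 to 57.1 CPM in S100β-GFP+ cells and 49.4 to 70.5 CPM in NG2-dsRed+ cells, and PSCs overlapped neither. It fell by 1.23 ± 0.13 and 1.61 ± 0.12 on the log2 scale (edgeR adjusted p = 2.26e-09 and 6.88e-12). Pik3cb, a catalytic subunit of PI3-kinase, was lower by 1.62 ± 0.31 and 2.21 ± 0.30. Plcg1 was lower by 0.74 ± 0.28 against S100β-GFP+ cells (adjusted p = 0.0320), a difference that was 0.05 without libraries 14, 17 and 22 (adjusted p = 0.879), and by 1.67 ± 0.28 against NG2-dsRed+ cells.

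Of 14 feedback genes and early targets of the downstream ERK pathway, 9 were higher in PSCs against S100β-GFP+ cells and 2 were lower (Fosl1 and Myc), where 22.9% of all tested genes were higher. Against NG2-dsRed+ cells 5 of 14 were higher and 4 were lower (Spry1, Spry4, Egr1 and Fosl1), where 20.9% of all tested genes were higher and 23.1% lower. The call of Egr1 was lost with no filter, with only the groups compared and with the share term (adjusted p = 0.0548, 0.0618 and 0.113) and in 7 of 19 fits that left out 1 library, and that of Fosl1 with only the groups compared (adjusted p = 0.0522). Etv1 and Etv5, which encode ETS transcription factors, did not overlap between PSCs and either other cell type. Etv1 was at 221 to 499 CPM in PSCs, 6.79 to 20.1 CPM in S100β-GFP+ cells and 41.6 to 87.8 CPM in NG2-dsRed+ cells, with log2 fold changes of 5.01 ± 0.24 and 2.61 ± 0.20 (edgeR adjusted p = 2.11e-15 and 8.51e-12). Etv5 was at 96.0 to 230 CPM, 9.22 to 18.0 CPM and 18.7 to 34.5 CPM, with 3.53 ± 0.19 and 2.64 ± 0.17 (adjusted p = 1.52e-14 and 2.26e-13). Ccnd1, the gene of cyclin D1, was higher by 2.71 ± 0.30 and 2.18 ± 0.27, and Dusp6, a phosphatase of ERK, by 2.43 ± 0.22 and 1.28 ± 0.19. Egr1 and Fos, immediate early genes, had medians of at least 1327 CPM in each cell type, and Fos did not pass in either comparison by edgeR (adjusted p = 0.574 and 0.580), whereas limma-voom called it lower against NG2-dsRed+ cells (−0.61, adjusted p = 0.00197).

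**Figure D5:**
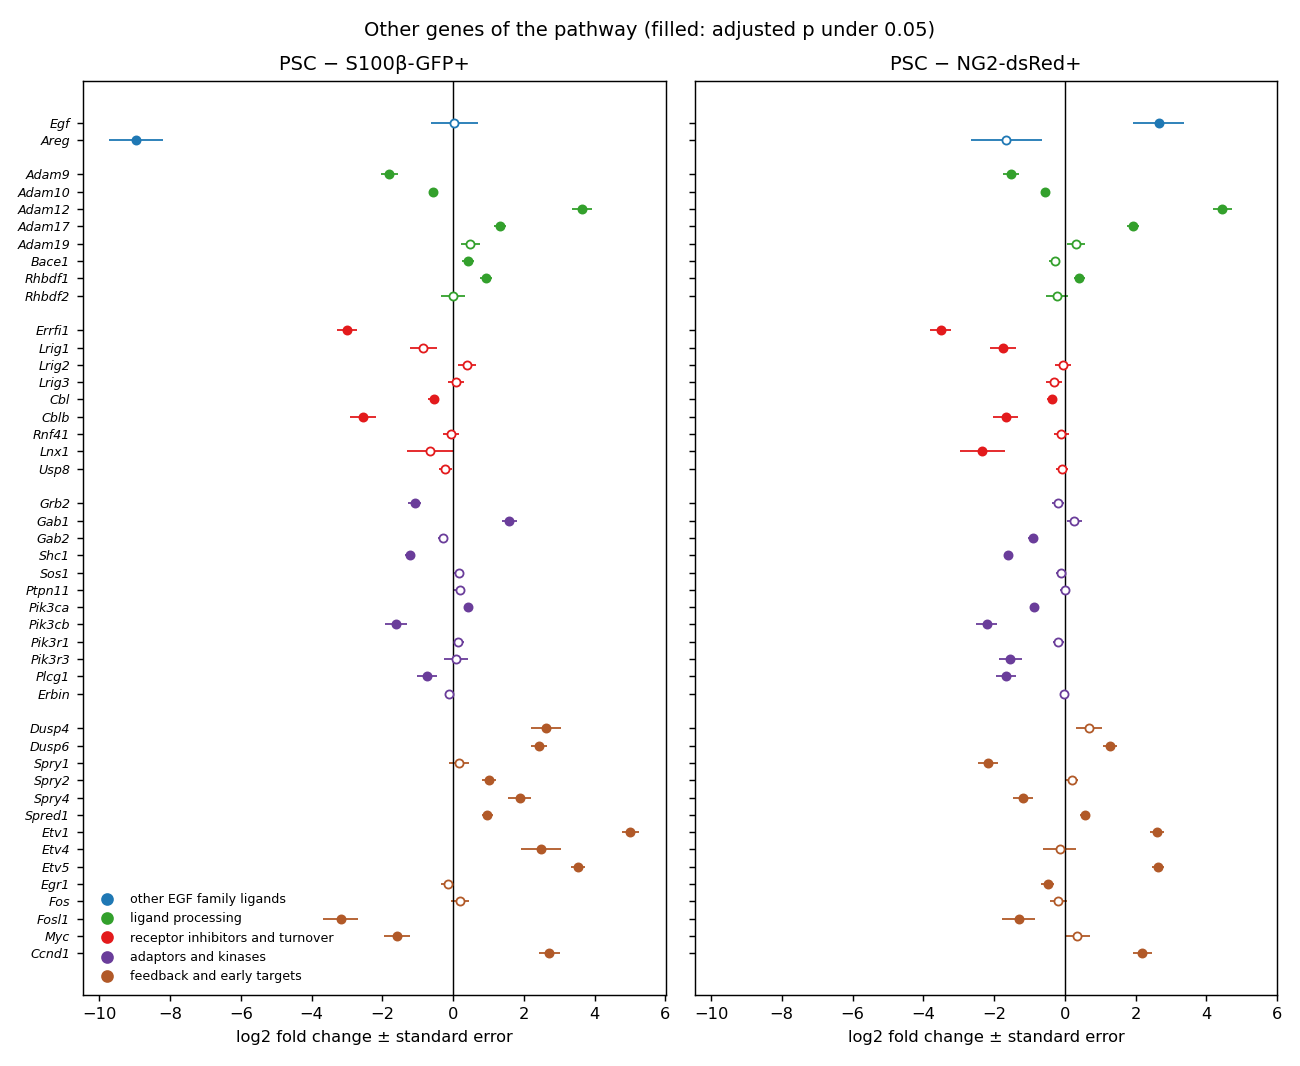
Log2 fold change with standard error (horizontal axes) of 45 other genes of the pathway, in PSCs against S100β-GFP+ cells (left panel) or NG2-dsRed+ cells (right panel), grouped by role and filled where the edgeR adjusted p was under 0.05. Etv1, Etv5, Ccnd1, Adam12 and Adam17 are to the right in both panels, and Errfi1, Cblb, Shc1 and Adam9 to the left, while the position of Areg rests on 2 counts in PSCs and depends on the prior count of the fit.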

How the data were processed

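RNA of sorted PSCs, S100β-GFP+ cells and NG2-dsRed+ cells was sequenced after SMART-Seq v4 amplification. HISAT2 served the authors for alignment and HTSeq for counting, after trimming by ea-utils and Btrim, and their deposited table gives raw whole-number counts for each gene. The submitters' processing notes name GRCm38; their annotation and use of strand are not given in the sources here. Columns were matched to samples by library number, for 27 of 36 labelled libraries (9, 8 and 10), and 0 columns lacked a sample. The series' design text names 7 S100β-GFP+ libraries and the table has 8, all of which were used. The labels give P15 to a last day that goes up to 46 with the library number, against P15 to P21 in the methods. Libraries are separate mice within a cell type, and whether cell types share mice is not given.

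Symbols, positions and exon lengths came from GENCODE M21, which holds 99.7% of the identifiers. In R 4.3.3, edgeR 4.0.16 (TMM, filterByExpr with a minimum count of 10, 15330 genes kept, 1 quasi-likelihood fit of 3 cell types, Benjamini-Hochberg adjustment over all tested genes at 0.05) was the test. The SE given with its log2 fold changes was derived as the absolute log2 fold change over the square root of the F statistic. It is approximate, above all for genes at a few counts. DESeq2, which the study used, was an alternative (version 1.42.0), with limma 3.58.1 (voom). Others were DESeq2 size factors, no filter, a mean of 5 counts as filter, only the groups compared, the share of counts on 3 genes as a term, leaving out S100β-GFP+ libraries 14, 17 and 22, and leaving out each library. No filter together with leaving out those libraries was chosen after seeing the data. The scripts were tested on simulated data. Replicate columns were compared, and none were identical (lowest chi-square per degree of freedom 8.92). Intervals and floors of 3 counts cover counting error only, since the reads carry no molecular identifiers. Members and lists were chosen with earlier results of these data known. Genes named are the members, the 3 pathway genes per group with the largest smaller change among those past the threshold in the same direction in both comparisons, the 3 genes most correlated with each receptor and with Hbegf, markers, overlapping genes, and Lars2, Gm23935 and Gm15564, and further pathway genes chosen after their values were seen. Promoter windows came from RefSeq's table and were taken for 6 of the 10 members, of which Erbb2 and Egfr are shown.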

Additional observations from a re-analysis of the deposited data

Results flagged for a closer look

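In 30 sets of member values by cell type, 5 values, from 4 libraries, lay further from the rest of their cell type than Dixon's 95% limit allows on the log2(CPM + 1) scale. The rate of about 1 set in 20 by chance holds for normally distributed values only. Flagged sets of Erbb4, Nrg1 and Nrg3 are mostly at 0 or a few counts, so the number of flags cannot be set against that rate. In PSC library 36 this held for Erbb4, at 0.526 CPM (5 of 8 counts), and for Nrg1, at 0.947 CPM (9 of 11 counts). In S100β-GFP+ library 22 it held for Nrg3, at 1.97 CPM, and in NG2-dsRed+ library 35 for Nrg3, at 0.162 CPM, which is 1 count. In PSC library 34 it held for Btc, at 0.648 CPM, the low side of its group.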

How the results depend on the processing

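No paired analysis was possible because library numbers are unique to each library and which libraries share a mouse is not given. The tests treat the cell types as independent, which would ignore a pairing if cell types were sorted from the same mice. Between S100β-GFP+ and NG2-dsRed+ cells 2 of 6 tested members passed the threshold, beside 33.3% of all tested genes. The count was 4 of 10 with DESeq2 and 5 of 10 with no filter. It was 4 of 9 with a filter of a mean of 5 counts and 4 of 6 with limma-voom. Over all genes, 4194 were higher and 2276 lower with DESeq2 (of 44705, 19938 of them without an adjusted p). No filter gave 8194 and 2392 of 44705, the mean filter 3463 and 2489 of 18865, and limma-voom 3515 and 3511 of 15330. With no filter the added calls were those of Nrg1, Erbb4 and Nrg3, which the main filter removes. S100β-GFP+ library 22 held 25 of 49 Erbb4 counts and 12 of 18 Nrg3 counts in that cell type. Leaving out 1 library at a time gave 4 to 5 members and 25 to 30 pathway genes for PSCs against S100β-GFP+ cells, 4 to 5 and 23 to 26 against NG2-dsRed+ cells, and 2 to 3 and 22 to 26 between the others. Against S100β-GFP+ cells without libraries 14, 17 and 22, Plcg1 turned from −0.74 to 0.051 and Lnx1 from −0.66 to 1.75 (adjusted p = 0.0289), and the cause was not tested. The calls of Erbb3 and Egfr in PSCs against both cell types held in all alternatives run. Erbb2 lost its call against NG2-dsRed+ cells with limma-voom only, and gained one between S100β-GFP+ and NG2-dsRed+ cells in fits of only those groups (−0.58, adjusted p = 0.0209), with limma-voom (−0.80, 0.00836), with the share of counts on 3 genes (−0.69, 0.00709) and without S100β-GFP+ library 33 (−0.70, 0.0490). Egfr gained a call between S100β-GFP+ and NG2-dsRed+ cells in fits of only those groups (0.67, adjusted p = 0.0158) and with limma-voom (0.66, 0.00837). For pathway genes, the 1194 alternative fold changes counted next exclude fits that left out 1 library and the comparison between the other cell types. Calls changed in such fits too, as in 14 of 19 for Cbl in PSCs against NG2-dsRed+ cells. Of these 1194 fold changes 1137 kept their side of the threshold, of which 1106 kept their sign and 31 that passed in neither fit changed it (absolute value at most 0.59, 6 of them for Nrg4 in PSCs against NG2-dsRed+ cells). A further 30 lost the threshold, 25 gained it and 2 changed sign with a call. Members at a few counts per cell type (Erbb4, Nrg1, Nrg2, Nrg3) are limited by depth.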
